A study of Mus musculus with 13 samples.

Results

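The genes described here are 8 members of the Nlrp family that mouse oocytes transcribe besides those of the subcortical maternal complex: Nlrp14, the 3 Nlrp9 genes (Nlrp9a, Nlrp9b and Nlrp9c) and 4 Nlrp4 genes (Nlrp4a, Nlrp4b, Nlrp4c and Nlrp4e). They were chosen by name, and all 8 were found among the 18939 genes with deposited counts, which hold 19 Nlrp symbols in all. RNA of 13 single oocytes was sequenced, from C57BL/6 females aged 3 to 4 weeks and primed with PMSG: 3 SN GV, 3 NSN GV, 4 SN-MII and 3 NSN-MII oocytes. GV oocytes are held before the first meiotic division with an intact nucleus, the germinal vesicle, and MII oocytes have finished that division and await fertilization. In SN oocytes a chromatin ring surrounds the nucleolus and in NSN oocytes it does not. All oocytes, of every group, had been injected with mRNA of FBL–GFP (fibrillarin, a nucleolar protein) and H2B-mCherry, kept for 6 h in Cilostamide, which holds them at GV, and assigned to SN or NSN by their FBL–GFP pattern. The MII oocytes were then released and matured in culture, so SN-MII and NSN-MII name the GV type an oocyte came from. No source states which animal an oocyte came from, so the p-values measure the spread between these oocytes, which may in part be technical.

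NLRP proteins carry an N-terminal pyrin domain, a central NACHT domain that binds nucleotide and C-terminal leucine-rich repeats. Some members, such as NLRP3, assemble inflammasomes in immune cells, whereas another branch of the family is transcribed mainly in germ cells and multiplied by gene duplication in rodents. Oocytes store the mRNAs of this branch during growth. NSN GV oocytes still transcribe, whereas SN GV oocytes are largely silent. Once chromosomes condense in maturation, mRNA levels depend largely on decay and on changes of the poly(A) tail. The libraries were primed on poly(A) tails, so an amount of mRNA and a change of its tail cannot be told apart in any value below.

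Total counts per library were between 7140416 and 8846287. The 8 genes together took 1.05% ± 0.039 (SD, n = 3) of the counts in SN GV, 1.06% ± 0.125 (n = 3) in NSN GV, 0.709% ± 0.0635 (n = 4) in SN-MII and 0.716% ± 0.128 (n = 3) in NSN-MII oocytes. The label of oocytes matched the markers: 10 oocyte markers, led by the growth factor Gdf9, summed to between 11700 and 16340 FPKM (5 rose and 4 fell with maturation in SN oocytes, 2 and 3 in NSN oocytes, by the test described below). Blood and immune markers, 3 of 5 measured, summed to between 0.64 and 3.34. Of 14 cumulus and granulosa markers, 3 had a mean of at least 1 FPKM, led by Cyp19a1 (30.6), and Foxl2, Fst and Ptx3 were listed at 0 in every library. Their sum was 28.3 to 38.0 FPKM in SN GV, 31.4 to 36.1 in NSN GV, 39.7 to 47.6 in SN-MII and 41.5 to 65.1 in NSN-MII oocytes, and its part in the differences between stages was not tested. NSN-MII replicate 3 stood apart for these genes, with the largest mean distance from its group (0.408 on the log2 scale, against 0.0811 to 0.304 in the other 12 libraries).

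All 8 genes lie on chromosome 7 (GRCm38/mm10, GENCODE M21). Nlrp9c (26322473 to 26403700, minus strand), Nlrp4a (26435113 to 26476142, plus) and Nlrp9a (26535023 to 26575615, plus) are neighbours, separated by 31.4 kb and 58.9 kb with no protein-coding gene between them. Nlrp4c (6045161 to 6105150), Nlrp4b (10687789 to 10730168), Nlrp9b (19991465 to 20073306) and Nlrp4e (23301192 to 23362277) lie on the plus strand, each apart from the others of these 8 genes. Nlrp14 (107166990 to 107198102, plus) lies far from the others. The places of other Nlrp genes were not looked at. Nlrp9b is thus the Nlrp9 gene outside the cluster. Within subfamilies the coding sequences were 85.2% to 88.3% identical among the Nlrp9 genes and 79.6% to 93.9% among the Nlrp4 genes, and between subfamilies 70.5% to 74.1%.

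**Figure D1:**
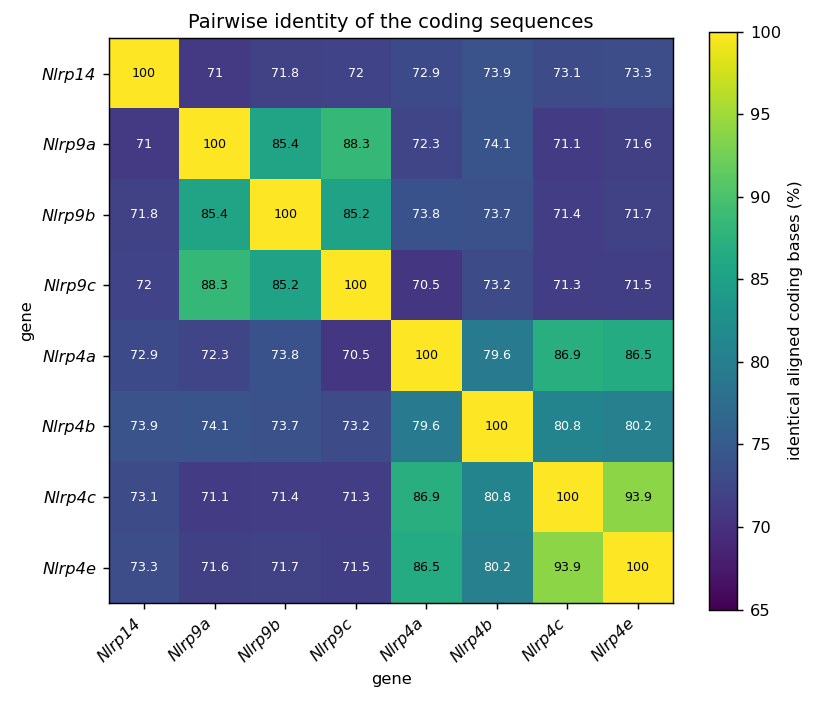
Identity of the coding sequences of the 8 genes, as the percentage of aligned bases that are identical (color scale from 65 to 100%). The Nlrp9 genes form a block of 85.2% to 88.3% and the Nlrp4 genes a looser one, in which Nlrp4c and Nlrp4e are most alike (93.9%) and Nlrp4b is farthest from the rest (79.6% to 80.8%).

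Reads from so similar genes can be misassigned, so the share of 100-base stretches of each gene's transcripts that occur in another gene was counted. It was 0% for Nlrp14, Nlrp4a and Nlrp4b, 0.229% for Nlrp9c, 0.82% for Nlrp9a, 0.844% for Nlrp4c and 2.11% for Nlrp9b. For Nlrp4e it was 11.5%, nearly all of it shared with Gm8486, whose mean FPKM was 1.21. Counts of Nlrp14, Nlrp4a and Nlrp4b were whole numbers in all 13 libraries, while those of Nlrp9a, Nlrp9b and Nlrp4e were not in 12 of 13, because RSEM divides reads that fit several genes. Nlrp4e is therefore the least certain of the 8 values.

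The sequence upstream of the genes is shown as a description. A link between it and the changes in maturation was not tested. The promoters are those of RefSeq (GRCm38.p6), found for 7 of the 8 genes, and are printed 5′ to 3′ from 110 bases before to 50 bases after the start site. Capitals mark CCAAT on either strand, CAGCTG (the E-box core that reads the same on both strands) and TATTAAG on either strand.
Nlrp9a promoter, chr7:26534913-26535072, plus strand: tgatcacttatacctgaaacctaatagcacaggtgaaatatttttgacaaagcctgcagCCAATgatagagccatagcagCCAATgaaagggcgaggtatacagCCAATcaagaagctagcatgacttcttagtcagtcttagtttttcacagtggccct
Nlrp9c promoter, chr7:26403651-26403810, minus strand: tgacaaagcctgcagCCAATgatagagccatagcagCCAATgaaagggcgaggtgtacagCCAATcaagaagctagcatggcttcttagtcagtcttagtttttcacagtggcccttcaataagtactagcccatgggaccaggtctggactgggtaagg
Nlrp9b promoter, chr7:20007913-20008072, plus strand: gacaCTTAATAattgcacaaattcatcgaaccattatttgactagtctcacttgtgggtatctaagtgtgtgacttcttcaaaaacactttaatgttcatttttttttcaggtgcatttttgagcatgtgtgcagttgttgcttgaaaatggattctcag
Over the full sequences, from 250 bases before to 50 after the start, the Nlrp9a and Nlrp9c promoters were 84.4% identical across 289 aligned columns and each held 3 CCAAT boxes. The Nlrp9b promoter aligned with Nlrp9a over 14 columns and with Nlrp9c over 18 columns only. It held no CCAAT, and its capitals mark TATTAAG on the other strand. However, its RefSeq start (20008023) lies inside the span that GENCODE gives the gene, which begins at 19991465. The sequence before the GENCODE start was not compared. These values therefore cannot tell whether the promoter of Nlrp9b differs from those of Nlrp9a and Nlrp9c. CCAAT occurred in 37.4% of all 32851 promoters of this length, so its presence is common.

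Among the Nlrp4 promoters, 3 were alike. Those of Nlrp4a (the downstream of its 2 RefSeq starts), Nlrp4b and Nlrp4c were 73.8% to 75.1% identical to each other over 249 to 307 columns.
Nlrp4a promoter, chr7:26435504-26435663, plus strand: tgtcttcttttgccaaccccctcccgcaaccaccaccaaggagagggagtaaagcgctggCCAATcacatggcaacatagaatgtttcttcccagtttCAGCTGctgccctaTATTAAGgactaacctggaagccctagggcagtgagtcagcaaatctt
Nlrp4b promoter, chr7:10687683-10687842, plus strand: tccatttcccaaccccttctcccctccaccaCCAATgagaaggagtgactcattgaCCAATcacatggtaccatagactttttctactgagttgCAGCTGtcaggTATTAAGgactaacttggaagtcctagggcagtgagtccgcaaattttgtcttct
Nlrp4c promoter, chr7:6045051-6045210, plus strand: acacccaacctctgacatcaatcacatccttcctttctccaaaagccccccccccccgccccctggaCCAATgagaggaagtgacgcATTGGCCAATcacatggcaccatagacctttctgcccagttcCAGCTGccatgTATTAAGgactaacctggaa
Each holds CAGCTG followed closely by TATTAAG. The first motif occurred in 16.3% of all promoters and the second in 1.81%, but the second was chosen after these sequences had been read. The upstream start of Nlrp4a aligned with these over 11 to 19 columns only. The Nlrp4e promoter, which aligned with Nlrp4c over 46 columns, also holds CAGCTG, with TATTAAG on the other strand. A match of letters is a description and not a binding site.

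The ends of the Nlrp9 mRNAs are shown because their 3′ untranslated regions differ at a motif of interest for maturation. The cytoplasmic polyadenylation element (TTTTAT or TTTTAAT) is known as the site where CPEB proteins act on the poly(A) tails of stored mRNAs. The 3′ untranslated regions, 195 bases in Nlrp9a, 196 in Nlrp9c and 201 in Nlrp9b, were 95.4% identical between Nlrp9a and Nlrp9c and 89.2% between Nlrp9a and Nlrp9b. TTTTAT, in capitals, stands 173 bases before the end in the first pair, and the stretch of Nlrp9b aligned to it lacks it.
Nlrp9a: aggtttatccttTTTTATgtttctcctata
Nlrp9c: aggcttatcctttTTTTATgtttctcctgt
Nlrp9b: aggcttatcctctgttatgtttctcccata
Counted from 1 at the 5′ end of the Nlrp9a stretch, with the base of Nlrp9a first, Nlrp9b differs by T4C, T12C, T14G and T27C. Nlrp9c differs by T4C and A28G and by 1 inserted base. All 3 genes end alike, with the polyadenylation signal AATAAA (capitals) 25 bases from the end.
Nlrp9a: cattcAATAAAcactaagcatgtgtgaaaa
Nlrp9c: cattaAATAAAcactaagcatgtttgaaaa
Nlrp9b: catttAATAAAcactaagcgtgtttgaaaa
Across the 8 genes, TTTTAT or TTTTAAT was found in Nlrp9a, Nlrp9c, Nlrp4a (3 TTTTAT and 2 TTTTAAT) and Nlrp4c, and in none of Nlrp14, Nlrp9b, Nlrp4b and Nlrp4e. At least 1 of these motifs occurred in 60% of 15395 annotated 3′ untranslated regions, which have a median length of 1107 bases against 184 to 1003 in these genes. The 3′ untranslated region annotated for Nlrp14 holds neither AATAAA nor its variant ATTAAA. Whether it reaches the end of the mRNA is not known, so a motif could be missed there. In Nlrp4a AATAAA lies 704 and ATTAAA 487 bases before the annotated end. Whether its mRNA ends there is not known either, so some motifs counted for it could lie outside the mRNA. No test was made of the motif matches.

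The levels of the 8 genes, compared per length as FPKM, ran from 11.2 to 1776 in SN GV, 14.2 to 1882 in NSN GV, 11.4 to 855 in SN-MII and 22.1 to 881 in NSN-MII oocytes (group means). Nlrp14, which mouse embryos need from the oocyte for early cleavage, was by far the most abundant. It measured 1776 ± 113 FPKM (SD, n = 3) in SN GV and 1882 ± 155 (n = 3) in NSN GV oocytes, the 35th and 34th highest mean of all genes above 0. At MII it measured 855 ± 141 (n = 4) in SN-MII and 881 ± 358 (n = 3) in NSN-MII oocytes, the 80th and 82nd highest. At GV the order then ran Nlrp9b (428 ± 12.8 in SN GV), Nlrp9c (247 ± 0.594), Nlrp4b (207 ± 17.5), Nlrp4a (206 ± 12.2), Nlrp9a (197 ± 12.6), Nlrp4e (98.8 ± 30.9) and Nlrp4c (11.2 ± 2.58), and it was the same in NSN GV oocytes. Nlrp4b, Nlrp4a and Nlrp9a were neighbours whose libraries overlapped in both GV groups, so their order among themselves is not resolved.

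The order changed at MII. Nlrp9c became the 2nd of the 8 genes, with 392 ± 32.8 FPKM in SN-MII (n = 4) and 376 ± 30.8 in NSN-MII (n = 3) oocytes, and Nlrp9b dropped from the 2nd place to the 6th in SN-MII (200 ± 50.9) and the 5th in NSN-MII oocytes (242 ± 60.7). Nlrp4a (289 ± 19.3 and 316 ± 18.3) came 3rd and Nlrp4b (276 ± 17.7 and 257 ± 17.1) 4th, with overlapping libraries in SN-MII and separate ones in NSN-MII oocytes. Nlrp9a measured 242 ± 28.2 and 216 ± 41.3, and its libraries overlapped with those of Nlrp9b in both MII groups. Libraries of Nlrp4b overlapped with those of Nlrp9a in SN-MII and with those of Nlrp9b in NSN-MII oocytes. The order of Nlrp4b, Nlrp9a and Nlrp9b is thus not fully resolved in either MII group. Nlrp4e (69.1 ± 12.1 and 71.3 ± 39) and Nlrp4c (11.4 ± 3.98 and 22.1 ± 11.6) stayed lowest. Without the length correction the order differs: Nlrp4a then stood 3rd at GV and 2nd at MII, and Nlrp9c 5th and 4th.

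Changes between GV and MII were tested on counts with edgeR's quasi-likelihood test over all 13 libraries, with Benjamini-Hochberg adjustment over 11375 genes and a threshold of 0.05. Maturation moved most of the transcriptome: 56.3% of genes passed in SN oocytes (25.1% higher and 31.2% lower at MII), and 56.3% in NSN oocytes (25.4% higher and 30.8% lower). Against this background 6 of the 8 genes passed in SN oocytes, and the same 6 in NSN oocytes. Nlrp14 and Nlrp9b fell in both, and Nlrp9a, Nlrp9c, Nlrp4a and Nlrp4b rose in both. Nlrp4c and Nlrp4e did not pass. A share of 6 in 8 is near that of all genes, so the direction and size of each gene, not the number that passed, are described next. Values per oocyte are CPM, the counts of a gene relative to the library total, scaled by TMM, given in the order of the replicate numbers.

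**Figure D2:**
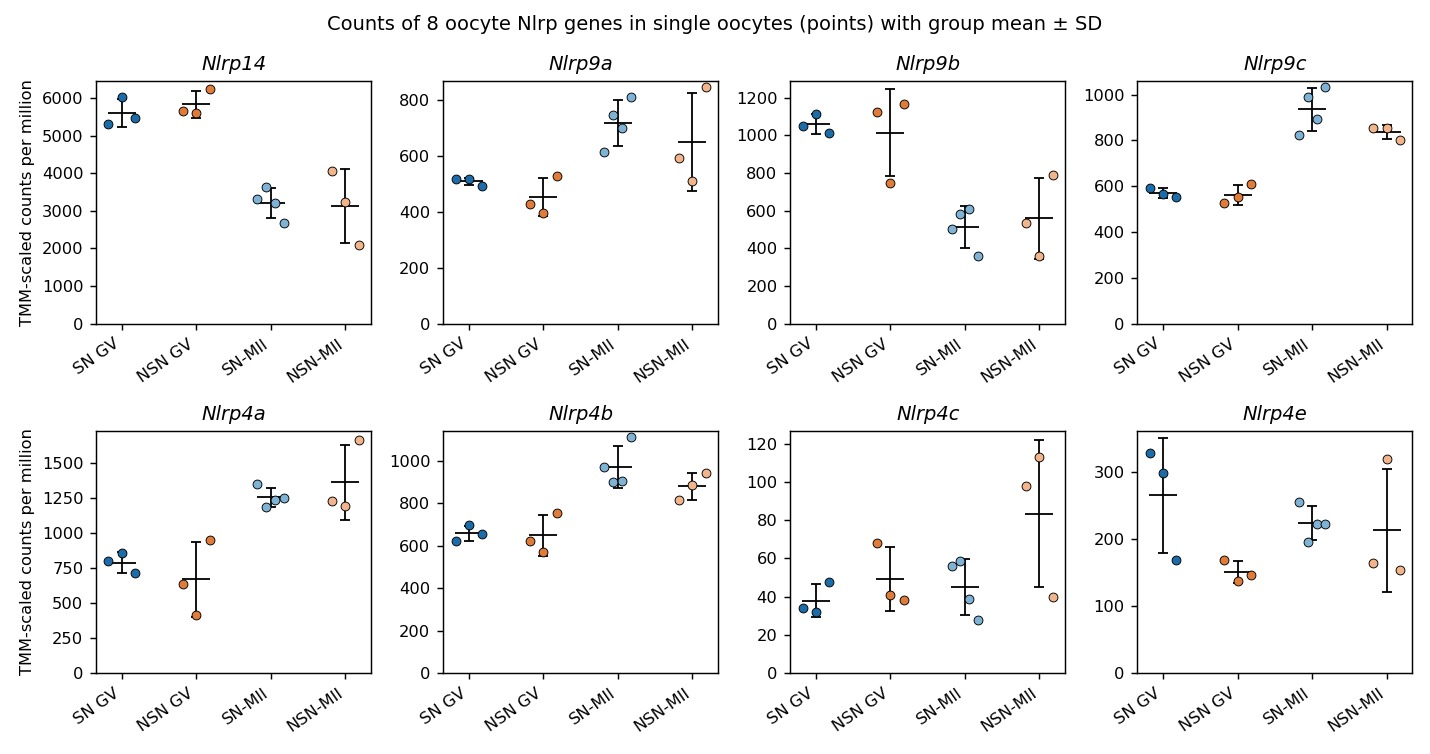
CPM (TMM-scaled) of the 8 genes in each of the 13 oocytes (points), with the mean and SD of each group (bars). Nlrp14 and Nlrp9b lie lower at MII than at GV, Nlrp9a, Nlrp9c, Nlrp4a and Nlrp4b higher, and Nlrp4c and Nlrp4e overlap between stages in both oocyte types.

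Nlrp14 fell to 0.573 of its GV level in SN and 0.537 in NSN oocytes. SN GV oocytes held 5317, 6014 and 5470.0 CPM and SN-MII oocytes 3300.3, 3643, 3217 and 2668. The difference was −0.80 on the log2 scale (SE 0.198, adjusted p = 0.00246). NSN GV oocytes held 5647, 5597 and 6241 CPM and NSN-MII oocytes 4057, 3233 and 2091, a difference of −0.90 (SE 0.215, adjusted p = 0.00196). Every MII oocyte of either type lay under every GV oocyte. NSN-MII replicate 3, with 2091, was the lowest of all 13, and without it the fall in NSN oocytes was −0.70.

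The Nlrp9 genes, whose products are less well understood (NLRP9B is known as a sensor of viral RNA in the gut epithelium), split by direction. Nlrp9b was at 1050.4, 1116 and 1014 CPM in SN GV and 501, 585, 607 and 361 in SN-MII oocytes, a difference of −1.05 (SE 0.25, adjusted p = 0.00199). It was at 1124, 749 and 1169 in NSN GV and 537, 359 and 787 in NSN-MII oocytes, a difference of −0.85 (SE 0.271, adjusted p = 0.0131). The SN groups stood clear of each other, while the NSN groups overlapped, since NSN GV replicate 2 lay under NSN-MII replicate 3. Without NSN-MII replicate 2, the lowest, the difference in NSN oocytes was −0.61 and did not pass (adjusted p = 0.0733).

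Nlrp9c moved the other way. It was at 592, 565 and 552 CPM in SN GV and 825, 990.2, 894 and 1033 in SN-MII oocytes, a rise of 0.72 (SE 0.158, adjusted p = 0.00109). In NSN oocytes it went from 525, 551 and 611 to 853, 853 and 802, a rise of 0.57 (SE 0.167, adjusted p = 0.00788). Neither pair of groups overlapped, and its spread within groups was among the smallest of the 8 genes.

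Nlrp9a rose less and with a call at the margin. SN GV oocytes held 517, 516 and 494 CPM and SN-MII oocytes 614, 749, 699 and 813, a rise of 0.50 (SE 0.196, adjusted p = 0.0393). NSN GV oocytes held 429.7, 398 and 529 and NSN-MII oocytes 593, 510.2 and 846, a rise of 0.52 (SE 0.208, adjusted p = 0.0412), and these groups overlapped. The SN call was lost on leaving out any of 6 libraries (adjusted p 0.0628 to 0.109, all 3 SN GV oocytes and SN-MII replicates 2, 3 and 4). The NSN call was lost on leaving out any of 9 of the 13 libraries in the fit, SN oocytes among them. The largest effect was that of NSN-MII replicate 3 (0.26, adjusted p = 0.232).

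The opposite moves can be read within a library, where no scaling between oocytes enters. The ratio of Nlrp9c to Nlrp9b in FPKM was 0.598, 0.569 and 0.565 in SN GV and 0.499, 0.834 and 0.578 in NSN GV oocytes. It was 1.79, 1.80, 1.54 and 3.28 in SN-MII and 1.44, 2.32 and 1.19 in NSN-MII oocytes. All 6 GV oocytes thus had more Nlrp9b than Nlrp9c and all 7 MII oocytes more Nlrp9c than Nlrp9b. The ratio of Nlrp9a to Nlrp9b was between 0.349 and 0.513 at GV and between 0.761 and 2.12 at MII. Nlrp9a against Nlrp9c moved less, from 0.614 to 0.855 at GV to 0.455 to 0.768 at MII, with overlap. These ratios were looked at after the changes of the single genes were known and carry no test.

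**Figure D3:**
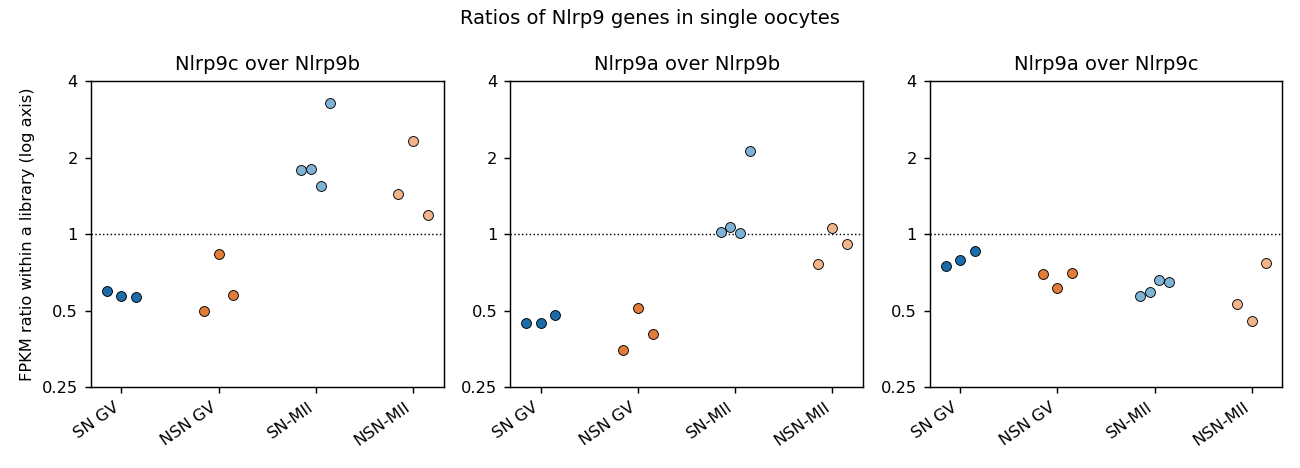
FPKM ratios of Nlrp9 genes within each oocyte (points, log axis, dotted line at 1), by group. Nlrp9c over Nlrp9b lies between 0.499 and 0.834 in the 6 GV oocytes and between 1.19 and 3.28 in the 7 MII oocytes, and Nlrp9a over Nlrp9c overlaps between stages.

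Summed over the 3 Nlrp9 genes the TMM-scaled level hardly moved: its geometric mean was 2138 CPM in SN GV, 2164 in SN-MII, 2012 in NSN GV and 2026 in NSN-MII oocytes, log2 differences of 0.02 and 0.01 beside a spread of 0.179 (pooled SD). In CPM without TMM the sum was lower at MII, 2364 ± 39.1 against 1950.0 ± 166 in SN and 2299 ± 403 against 1869 ± 177 in NSN oocytes. The most abundant of the 3 changed from Nlrp9b at GV to Nlrp9c at MII.

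The Nlrp4 genes rose or did not pass. Their summed level (geometric mean of TMM-scaled CPM) went from 1746 to 2494 in SN oocytes and from 1490.0 to 2530.0 in NSN oocytes, log2 differences of 0.51 and 0.76 beside a pooled SD of 0.204. In CPM without TMM the sum moved less, from 1932 ± 80.2 to 2244 ± 134 in SN and from 1717 ± 392 to 2328 ± 96 in NSN oocytes. Nlrp4a was at 798, 859 and 713 CPM in SN GV and 1354, 1187, 1235 and 1248 in SN-MII oocytes, a rise of 0.67 (SE 0.231, adjusted p = 0.0212). In NSN oocytes it went from 637, 419 and 953 to 1228, 1191 and 1668, a rise of 1.02 (SE 0.246, adjusted p = 0.00204). Every MII oocyte lay above every GV oocyte, although the NSN GV oocytes spread over more than a 2-fold range. The SN call was lost without SN GV replicate 1 (adjusted p = 0.0581) or replicate 3 (0.0855).

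Nlrp4b was at 624, 696 and 653 CPM in SN GV and 969, 899, 904 and 1114 in SN-MII oocytes, a rise of 0.56 (SE 0.167, adjusted p = 0.00881). NSN GV oocytes held 622, 570.1 and 756 and NSN-MII oocytes 813, 885 and 940.5, a rise of 0.44 (SE 0.177, adjusted p = 0.0439). The groups did not overlap in either type. However, the NSN call was lost on leaving out any of 11 of the 13 libraries in the fit, SN oocytes among them. Adjusted p then reached up to 0.128 (without NSN GV replicate 2).

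Nlrp4c and Nlrp4e were the lowest of the 8 genes. Nlrp4c was at 33.9, 31.9 and 47.8 CPM in SN GV, 68.3, 40.7 and 38.5 in NSN GV, 56.0, 58.6, 38.9 and 27.7 in SN-MII and 97.7, 113 and 39.9 in NSN-MII oocytes. Its differences were 0.26 (95% interval −0.48 to 1, adjusted p = 0.551) in SN and 0.76 (−0.02 to 1.55, adjusted p = 0.0907) in NSN oocytes. The latter passed without NSN GV replicate 1 (1.08, adjusted p = 0.0411) or NSN-MII replicate 3 (1.06, adjusted p = 0.0178). Nlrp4e was at 328, 299 and 168 in SN GV, 169, 138 and 146 in NSN GV, 256, 195, 223 and 222 in SN-MII and 165, 319 and 155 in NSN-MII oocytes. Its differences were −0.24 (−0.80 to 0.31, adjusted p = 0.449) in SN and 0.50 (−0.10 to 1.09, adjusted p = 0.147) in NSN oocytes. Stages overlapped for both genes in both types.

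**Figure D4:**
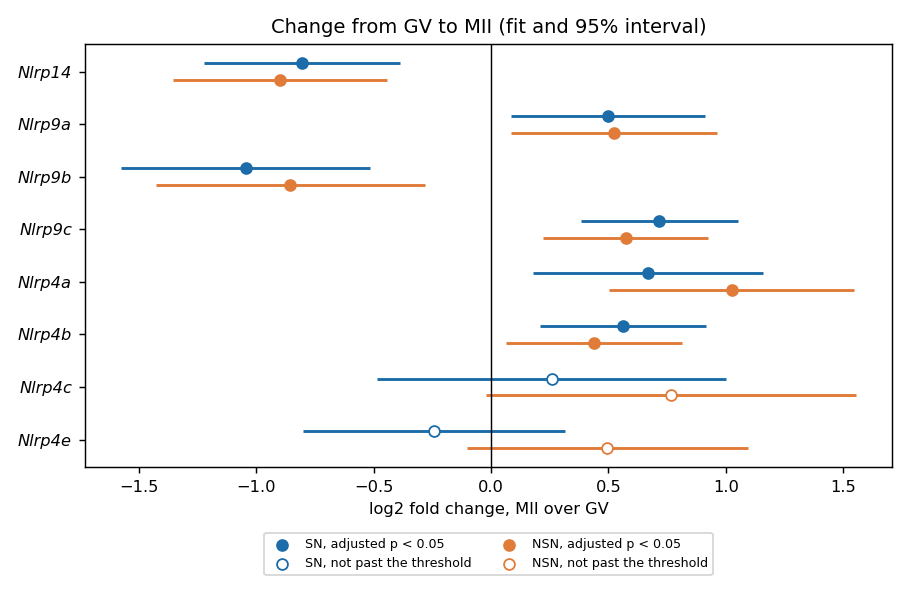
log2 fold changes from GV to MII with 95% intervals in SN (blue) and NSN oocytes (orange), filled where the adjusted p was under 0.05. Nlrp14 and Nlrp9b lie under 0 (−0.80 and −1.05 in SN oocytes). The intervals of Nlrp9a, Nlrp9c, Nlrp4a and Nlrp4b lie above 0 in both types, and those of Nlrp4c and Nlrp4e include 0.

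Libraries did not overlap between stages for 6 of the 8 genes in SN oocytes and for 4 in NSN oocytes, beside 63.4% and 60.9% of all genes tested. The median log2 change of the 8 genes was 0.38 in SN and 0.51 in NSN oocytes, beside −0.08 and −0.12 over all genes. The rises depend on the scale between stages. TMM factors were 1.06 to 1.26 at GV and 0.799 to 1.01 at MII, and in total counts without TMM, an alternative added after the data were seen, the median of all genes shifted to −0.37 in SN and −0.40 in NSN oocytes. On that scale 2001 genes were higher and 3986 lower in SN oocytes (against 2858 and 3550 with TMM), and 2168 and 3914 in NSN oocytes (against 2894 and 3509). Both falls then still passed, and of the rises those of Nlrp9c in SN (0.41, adjusted p = 0.0184) and Nlrp4a in NSN oocytes (0.72, adjusted p = 0.0108). Of the 8 calls of a rise (4 genes in each oocyte type), 6 were lost without TMM. Relative to the median gene, which takes out such a scaling by construction and so says nothing on the choice between scales, the changes in SN oocytes were 0.79 for Nlrp9c, 0.75 for Nlrp4a, 0.64 for Nlrp4b, 0.57 for Nlrp9a, −0.73 for Nlrp14 and −0.97 for Nlrp9b.

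NSN and SN oocytes of the same stage were then compared, since NSN oocytes mature and develop less well. None of the 8 genes passed at either stage. At GV edgeR called 0% of 10839 genes, with 190 at an unadjusted p under 0.05, DESeq2 called 0 and limma on FPKM 1, which was none of the 8. At MII 0.259% of 10028 genes passed. No gene of the 8 had separate libraries between types at either stage, beside 6.57% of all genes at GV and 10.2% at MII.

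At GV the differences between types that lay nearest to 0 were 0.08 for Nlrp14 (95% interval −0.20 to 0.35), −0.04 for Nlrp9b (−0.49 to 0.41), 0.00 for Nlrp9c (−0.31 to 0.31) and 0.00 for Nlrp4b (−0.36 to 0.36). Nlrp9a (−0.15, −0.51 to 0.20), Nlrp4a (−0.22, −0.82 to 0.38) and Nlrp4c (0.41, −0.32 to 1.14) also had intervals that included 0. For Nlrp4e the interval did not: −0.78 (−1.35 to −0.20, unadjusted p = 0.0134, adjusted p = 1), with SN GV replicates 1 and 2 above all NSN GV oocytes and replicate 3 among them. Without SN GV replicate 3 the difference was −1.0, and without SN GV replicate 1 it was −0.60 with an interval that included 0 (−1.26 to 0.06). Neither passed the adjustment.

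At MII the differences of 7 of the 8 genes were between −0.16 (Nlrp9c, −0.47 to 0.15) and 0.11 (Nlrp9b, −0.43 to 0.66). Nlrp14 differed by −0.03 (−0.50 to 0.44), an interval wider than at GV beside a spread of 40.6% of the mean FPKM in NSN-MII oocytes. Nlrp4c was 0.89 higher in NSN-MII oocytes (0.12 to 1.66, unadjusted p = 0.0274, adjusted p = 0.426). Its NSN-MII replicates 1 and 2 lay above all SN-MII oocytes and replicate 3 among them. Leaving out NSN-MII replicate 3 brought the difference to 1.23 and past the threshold (adjusted p = 0.0368), so this call turns on 1 oocyte.

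**Figure D5:**
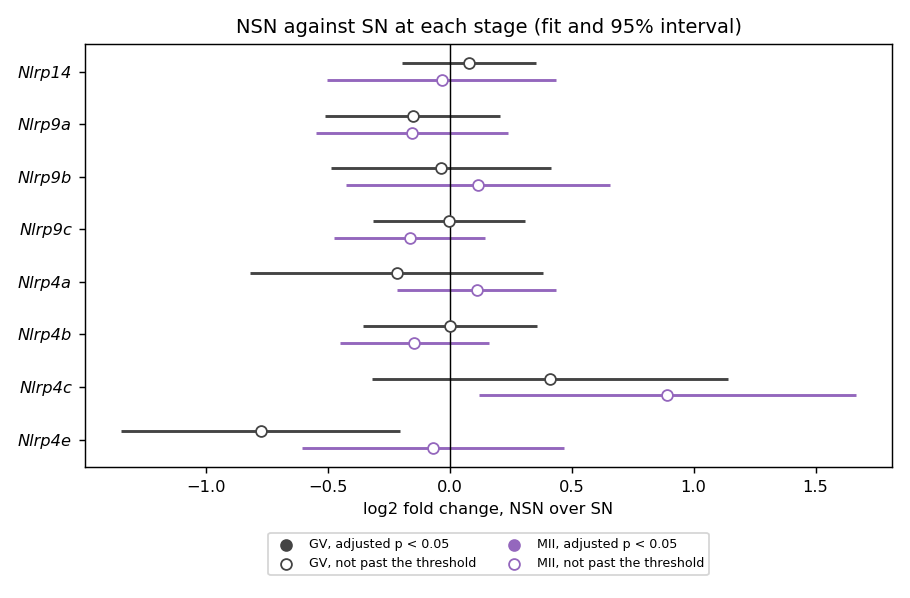
log2 fold changes of NSN over SN oocytes with 95% intervals at GV (grey) and MII (purple), all open because none passed an adjusted p of 0.05. The intervals of 7 genes include 0 at each stage, the exceptions being Nlrp4e at GV (−0.78) and Nlrp4c at MII (0.89).

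The test of whether maturation changed a gene differently in NSN and SN oocytes called 0.0176% of 11375 genes and none of the 8, of which 0 had an unadjusted p under 0.05. The estimates nearest to a difference were 0.74 for Nlrp4e (−0.08 to 1.55, unadjusted p = 0.0737, adjusted p = 0.99), 0.51 for Nlrp4c (−0.57 to 1.58) and 0.36 for Nlrp4a (−0.35 to 1.06). For Nlrp14 it was −0.09 (−0.71 to 0.52) and for Nlrp9c −0.14 (−0.62 to 0.34). Both maturation contrasts come from 1 fit and share its estimate of the spread, but no library.

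Variation between oocytes of a group was uneven among the genes. In FPKM the coefficient of variation was 0.241% for Nlrp9c and 2.99% for Nlrp9b in SN GV oocytes, but 5.98% and 30.2% in NSN GV oocytes, where Nlrp4a reached 37.8%. In TMM-scaled CPM the Nlrp9c groups were less unlike, at 569.8 ± 20.4 (SD, n = 3) and 562.2 ± 44 (n = 3). Replicate 2 of NSN GV had the lowest CPM of its group for 6 of the 8 genes (not Nlrp9c and Nlrp4c), and all 8 lay under their group means on the log2 scale, by −0.596 to −0.027. In NSN-MII oocytes the coefficient in FPKM was 5.8% for Nlrp4a, 6.65% for Nlrp4b and 8.21% for Nlrp9c, against 40.6% for Nlrp14, 52.7% for Nlrp4c and 54.7% for Nlrp4e. The order of the first 3 depends on the scale. Their TMM-scaled CPM in NSN-MII oocytes were 1362 ± 266 for Nlrp4a, 879.7 ± 63.8 for Nlrp4b and 836.2 ± 29.6 for Nlrp9c (SD, n = 3). NSN-MII replicate 3 was lowest of its group for Nlrp14, Nlrp9c, Nlrp4c and Nlrp4e and highest for Nlrp9a, Nlrp9b, Nlrp4a and Nlrp4b in CPM, so its deviation was not of 1 sign.

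The genes most like each member were taken as the 3 highest Pearson r of log2(CPM + 1) over the 13 libraries, among 7280 other genes with a mean CPM of at least 10. They were Syt16 (0.987), Pdzk1 (0.986) and Pik3c3 (0.986) for Nlrp14, Gdpd1 (0.986), Bin2 (0.983) and Ddr1 (0.982) for Nlrp9c, and Plekha5 (0.988), Ncoa3 (0.988) and Acbd5 (0.987) for Nlrp4a. For Nlrp4b they were Ssrp1 (0.984), Utp15 (0.976) and Tcof1 (0.975). Values were lower for Nlrp9b (Recql5 0.958, Hadha 0.943 and Prpsap1 0.94) and Nlrp9a (Sptlc1 0.953, Rsrc1 0.949 and Iqgap2 0.946). They were lowest for Nlrp4c (Abce1 0.94, Vps4b 0.929 and Sae1 0.903) and Nlrp4e (Zfp939 0.803, Fnta 0.778 and Zfp944 0.703). All points share the 2 stages, so a large r says mainly that a gene separates GV from MII. Among the 8 genes, r was 0.919 between Nlrp9c and Nlrp4b, 0.826 between Nlrp9c and Nlrp9a, −0.847 between Nlrp9c and Nlrp9b and 0.713 between Nlrp14 and Nlrp9b. After subtracting group means, r between Nlrp14 and Nlrp9b was −0.152.

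Of the other Nlrp genes, 4 had a mean of at least 1 FPKM in some group. Nlrp5 (MATER, −0.90 in SN and −1.35 in NSN oocytes, adjusted p = 0.00681 and 0.000677) and Nlrp2 (−2.33 and −1.71, adjusted p = 5.06e-05 and 0.00146), both of the subcortical maternal complex, fell. Nlrp4g rose (0.74 and 0.97, adjusted p = 0.00488 and 0.00101), like Nlrp4a and Nlrp4b. Nlrp4f, at 658 FPKM in SN GV oocytes the most abundant Nlrp4 gene, did not pass (0.36 and 0.65, adjusted p = 0.28 and 0.0702). Of a list of 8 genes of the subcortical maternal complex and cytoplasmic lattices, which holds Nlrp2, Nlrp4f and Nlrp5, 6 fell and 1 rose in both types. The median was −2.31 in SN and −1.95 in NSN oocytes, beside −0.80 and −0.90 for Nlrp14. The peptidylarginine deiminase homologue Padi6 (−2.57 and −3.15) and the co-repressor homologue Tle6 (−2.47 and −3.02) were among those that fell, and Zbed3 was the one that rose (1.73 and 2.0).

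Of 11 inflammasome genes 3 had a mean of at least 1 FPKM and were tested: Txnip, a thioredoxin-binding protein (559), Nek7 (5.60) and Dhx9 (1.04). The adaptor Pycard (ASC) and the protease Casp1 had means of 0.0485 and 0.135 FPKM, and the cytokine Il1b and the DNA sensor Aim2 were listed at 0 in all libraries. The kinase Nek7, an NLRP3 partner, rose (1.85 and 1.48, adjusted p = 5.75e-05 and 0.000525), from 2.34 ± 0.544 to 7.83 ± 1.05 FPKM in SN oocytes. Txnip fell in NSN oocytes (−1.37, adjusted p = 0.000654) and was at 0.04 in SN oocytes (adjusted p = 0.917). Of 22 other genes of the wider NLR family, 8 were tested, of which 1 rose and 3 fell in SN and 2 rose and 3 fell in NSN oocytes. These 8 include Nlrp2, Nlrp4f, Nlrp4g and Nlrp5, already described above. Of the rest, Nlrc4, an inflammasome receptor, rose in NSN oocytes (1.34, adjusted p = 0.000937), and Naip1 fell in both types (−2.08 and −1.69, adjusted p = 0.000391 and 0.00368).

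Of the proteins reported to act with NLRP14, Uhrf1, a maintenance factor of DNA methylation, rose (0.71 and 0.50, adjusted p = 0.00182 and 0.0246), opposite to Nlrp14, and Slc8b1, a mitochondrial sodium and calcium exchanger, had a mean of 0.0246 FPKM. Of 6 oocyte transcription factors 5 were tested. Nobox (−2.87 and −1.92, adjusted p = 1.19e-06 and 0.000157), Figla (−4.37 and −4.13, adjusted p = 1.35e-07 and 9.06e-07) and Lhx8 (−1.75 and −1.50, adjusted p = 1.61e-06 and 2.41e-05) fell in both types, by more than any of the 8 genes. Sohlh2 rose in both (1.58 and 2.44, adjusted p = 0.0247 and 0.00263) and Taf4b in NSN oocytes (1.25, adjusted p = 0.0318). None of the genes in these lists passed between NSN and SN oocytes at either stage. None passed the test of whether maturation differed between the types either (adjusted p = 0.396 for Txnip, 0.926 for Nlrc4 and 0.918 for Taf4b). A change that passed in 1 type only is thus not shown to differ between types.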

How the data were processed

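RNA of 13 single oocytes was amplified with SMART-seq2 and sequenced, and the sources name no molecular identifiers and no strand-specific library. Per the labels and methods, the authors trimmed reads with Trim Galore 0.4.4, mapped them to mm10 with Bowtie2 2.3.5 on Ensembl annotation and quantified genes with RSEM 1.2.28. RSEM's estimated count per gene, unnormalized, is what the authors supplied for GV and MII in separate tables, and reads that match several genes are divided among them. For 49686 genes the authors also supplied FPKM, scaled for length and library size, in a single table. No sample column was left unused. Groups came from the sample titles.

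Counts were rounded to whole numbers. The 2 stage contrasts and the interaction were fitted on all 13 libraries with edgeR 4.0.16 (R 4.3.3; filterByExpr, TMM, quasi-likelihood test, Benjamini-Hochberg), and NSN against SN within each stage, where the common biological coefficient of variation was 0.352 at GV and 0.344 at MII. Alternatives were DESeq2 1.42.0 (Wald test, and its size factors in edgeR), limma 3.58.1 (trend) on log2(FPKM + 1) or log2(FPKM + 0.1) for genes averaging 1 FPKM or more, no filter on low counts, the replicate number as a block, other sets of libraries in the fit, and leaving out each library. Total counts without TMM were an alternative chosen after seeing the data. The fits were also run on simulated counts in which few genes were changed. Such counts cannot show how the fits behave where most genes change, as between these stages. The intervals cover an error of PCR amplification only as far as it differs between oocytes, not one shared by all libraries.

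Coordinates, transcripts and identities came from GENCODE M21 (GRCm38), and promoters from RefSeq (GRCm38.p6). The genes and lists were chosen with earlier results of these data known. Named were all 8 genes, other Nlrp genes averaging 1 FPKM or more in a group, up to 3 of the most abundant genes of each other list, and the 3 genes nearest to each of the 8. Other genes of the lists (Padi6, Nlrc4, Naip1, Sohlh2, Taf4b, Slc8b1 and inflammasome genes at or near 0) were named after their values were seen. Gene lists hold genes in common, such as Figla (transcription factors and oocyte markers) and Nlrp2, Nlrp4f and Nlrp5. Imaging and maturation rates were not analysed here.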

Additional observations from a re-analysis of the deposited data

How the results depend on the processing

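Precision was limited by 3 or 4 oocytes per group. Nlrp4c had the lowest counts of the 8 genes, and their part in its spread was not tested. The 21 alternatives of each stage contrast include leaving out each of the 13 libraries in turn. Libraries of the oocyte type not compared act only through scaling, filter and shared spread, so leaving them out tests a call less. Over the 21, the falls of Nlrp14 passed in both oocyte types in all, and that of Nlrp9b in 21 in SN and 19 in NSN oocytes. The rise of Nlrp9c passed in 21 and 19 and that of Nlrp4a in 16 and 21. Nlrp4b passed in 20 of 21 in SN but 3 of 21 in NSN oocytes, and Nlrp9a in 8 and 4. All 6 kept their direction in every alternative. In total counts without TMM 3 of the 8 genes passed in SN and 3 in NSN oocytes, and in the 2 NSN groups alone 2 passed (Nlrp14 and Nlrp4a), where the cause was not tested. With each library left out, 4 to 6 of the 8 passed in SN and 4 to 6 in NSN oocytes, over 5463 to 6714 and 5847 to 6426 genes. Between types at MII 0 to 1 of the 8 passed, over 2 to 233 genes.

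Over all genes NSN against SN at GV gave 1 gene with limma at either pseudocount (0 with any library left out). At MII it gave 16 genes in total counts, 89 without the filter, 2 with the replicate block, 221 with DESeq2, 4 with limma at either pseudocount and 69 in the fit of all libraries, against 26. The interaction gave 6 without the filter, 43 with DESeq2, 1 with limma at either pseudocount and 0 to 12 with a library left out, against 2. By CPM in place of FPKM, 5 of the 8 genes kept their place in the order in SN-MII and 3 in NSN-MII oocytes.

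The replicate numbers did not pair the oocytes: same-numbered libraries deviated from their groups with r from −0.527 to 0.2, and 3 of 18 pairs were over 0.1. With the replicate block 5 of the 8 genes passed in SN and 4 in NSN oocytes, over 5623 and 6151 genes.

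No change that passed was reversed. Nlrp4c in SN maturation was −0.036 in total counts and −0.020 and −0.026 with limma (pseudocounts 1 and 0.1). At GV Nlrp9c was 0.011 in total counts and 0.037 with limma at either pseudocount, and Nlrp4b 0.012 in total counts, 0.00010 with DESeq2's size factors and 0.0095 with limma at either pseudocount. At MII Nlrp14 was 0.031 in total counts and Nlrp9b −0.081 with the replicate block. With a library left out, NSN against SN at GV ranged from −0.18 to 0.15 for Nlrp9b, −0.043 to 0.032 for Nlrp9c, −0.52 to 0.040 for Nlrp4a and −0.10 to 0.10 for Nlrp4b. At MII it ranged from −0.27 to 0.19 for Nlrp14, −0.19 to 0.35 for Nlrp9b, −0.044 to 0.19 for Nlrp4a and −0.50 to 0.12 for Nlrp4e. The interaction of Nlrp14, Nlrp9a, Nlrp9b and Nlrp4b also changed sign in this way, over −0.36 to 0.11, −0.22 to 0.17, −0.16 to 0.43 and −0.21 to 0.0064.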
